A study of Mus musculus with 13 samples.

Results

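The potassium channel genes of the mouse retrosplenial cortex are described here, taken as every gene whose name begins with Kcn in 2 deposited count tables. The table of dissociated cells held 62 such genes among 15114, and the table of section spots held 99 among 32285. All 62 genes of the cell table were also in the section table, 37 genes were in the section table alone, and 9 of the 99 had no count in any spot. The rule used names and no measured value.

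The retrosplenial cortex is a midline cortical area behind the cingulate cortex, and no treatment was applied in the study. Neurons of wild-type B6 mice were microdissected and dissociated from acute slices, with cells pooled across slices, in 11 samples from 3 animals (3, 4 and 4 samples, with 152, 304 and 309 cells). Each cell name gave its dissection level as anterior, medium or posterior. Separately, 2 sections of 10 µm from flash-frozen wild-type brains, stained for NeuN and DAPI, were placed on Visium slides. Each Visium spot takes up RNA from a patch of tissue, often from more than 1 cell. S4 and S8, the suffixes of the spot names, serve as names of the sections, and which labelled section each one is was not used. The age and sex of the animals are not stated in the labels used here.

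Potassium channels set how readily a neuron fires, how its action potential ends and how it rests between spikes. Pore-forming subunits assemble as tetramers (as dimers for the two-pore channels), and the subunits that a neuron makes decide the voltage, calcium or ligand that opens the pore. Silent subunits form no working channel alone and change the gating of Kcnb channels, and auxiliary subunits bind pore-forming subunits and alter their inactivation or their traffic to the membrane. In the cortex these genes are known to differ between the neurons of different layers and projection types.

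Kcn genes took similar shares of the counts in both assays, with 0.334%, 0.339% and 0.357% in animals 1, 2 and 3 and 0.31% and 0.333% in sections S4 and S8. Depth was unequal between animals: the median count per cell was 65843 in animal 1, 132797 in animal 2 and 185995 in animal 3, and totals per sample ran from 2306470 to 15974543. The sections held 8436518 and 6389042 counts. Slc17a7, the vesicular glutamate transporter of cortical excitatory neurons, had a count in 756 of 765 cells, so the cells labelled as neurons were nearly all excitatory by this gene. No cell name occurred in more than 1 sample, and 162 spot barcodes occurred in both sections, each naming a different spot.

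Cells were grouped into 11 classes by clustering with every Kcn gene left out, so that no channel gene drew a class. The other genes of the same cells drew them, so the tests describe how far the classes differ and are not independent of the cells' identity. Classes 1 and 8 were layer 2/3 intratelencephalic-like and led by Calb1 (202 and 39 cells). Class 8 also had 2 of 3 retrosplenial markers raised, Tshz2 and Slc17a6, with Slc17a6 among its 10 leading genes. Class 2 was led by Thsd7a, Pygm, Car4 and Hsd11b1 and stayed unnamed (122 cells). Classes 3 and 7 were layer 5 extratelencephalic-like (77 and 64 cells), class 3 with Qrfpr and Reln and class 7 with Nrtn and Pvalb among their leading genes. Class 7 also had 2 of 2 near-projecting markers raised, Tshz2 and Lypd1, with none among its 10 leading genes. Class 4 was layer 6 intratelencephalic-like (75 cells) and class 5 layer 6 corticothalamic-like (71 cells). Class 6, led by Ptprm and Aldh1l1 (70 cells), had all 3 layer 5 intratelencephalic and all 3 retrosplenial markers raised, as well as 3 of 4 layer 5 extratelencephalic ones, with none among its 10 leading genes, and is left unnamed here. These 8 classes had at least 10 cells in at least 2 animals and entered the tests, with class 3 present there in animals 1 and 2 only and classes 6 and 8 in animals 2 and 3 only. Of the 77 cells of class 3, 75 were posterior, so class and dissection level cannot be told apart for it. Ranks, overlaps and highest or lowest values below are among these 8 tested classes, and classes 9 to 11 are brought in by number where they matter.

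Markers of other cell types also differed between the classes. The 4 interneuron markers in the table summed to 169 CPM (counts scaled to library size) in class 2, 107 in class 7, 56.7 in class 3 and at most 2.69 in the other tested classes, and nearly all of it was Pvalb (168, 106 and 54.5 CPM). The 5 astrocyte markers summed to 38.8 to 273 CPM in classes 1 to 7 and 717 in class 8, with Aldoc giving 715. The 3 mural markers summed to 61.7 CPM in class 5, of which Acta2 gave 53.2, against at most 4.29 in the other tested classes. No microglial or endothelial marker of the lists had a row in the cell table. The part of these markers in the Kcn results was not tested.

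Among the 61 Kcn genes that passed the filter on low counts (Kcnn3, with 73 counts in all cells, did not), 33 differed among the 8 classes, which is 54.1% against a background of 16.1% of all 13297 genes tested. A gene counted as different at an edgeR quasi-likelihood adjusted p under 0.05 and a range of fitted class levels of at least 1 on the log2 scale, with the animal as a block. The median range was 2.88 over the Kcn genes tested and 1.67 over all genes tested. By family, 8 of 8 auxiliary subunits, 6 of 13 voltage-gated subunits of the Kcna to Kcnd groups, 4 of 8 silent subunits, 4 of 7 EAG-type, 4 of 6 ion-activated, 2 of 4 KCNQ, 3 of 8 inward rectifier and 2 of 7 two-pore channel genes differed. Without animal 1 the count was 19, without animal 2 it was 20, and without animal 3 it was 22, and 11 of the 33 genes kept their call under every alternative run.

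**Figure D1:**
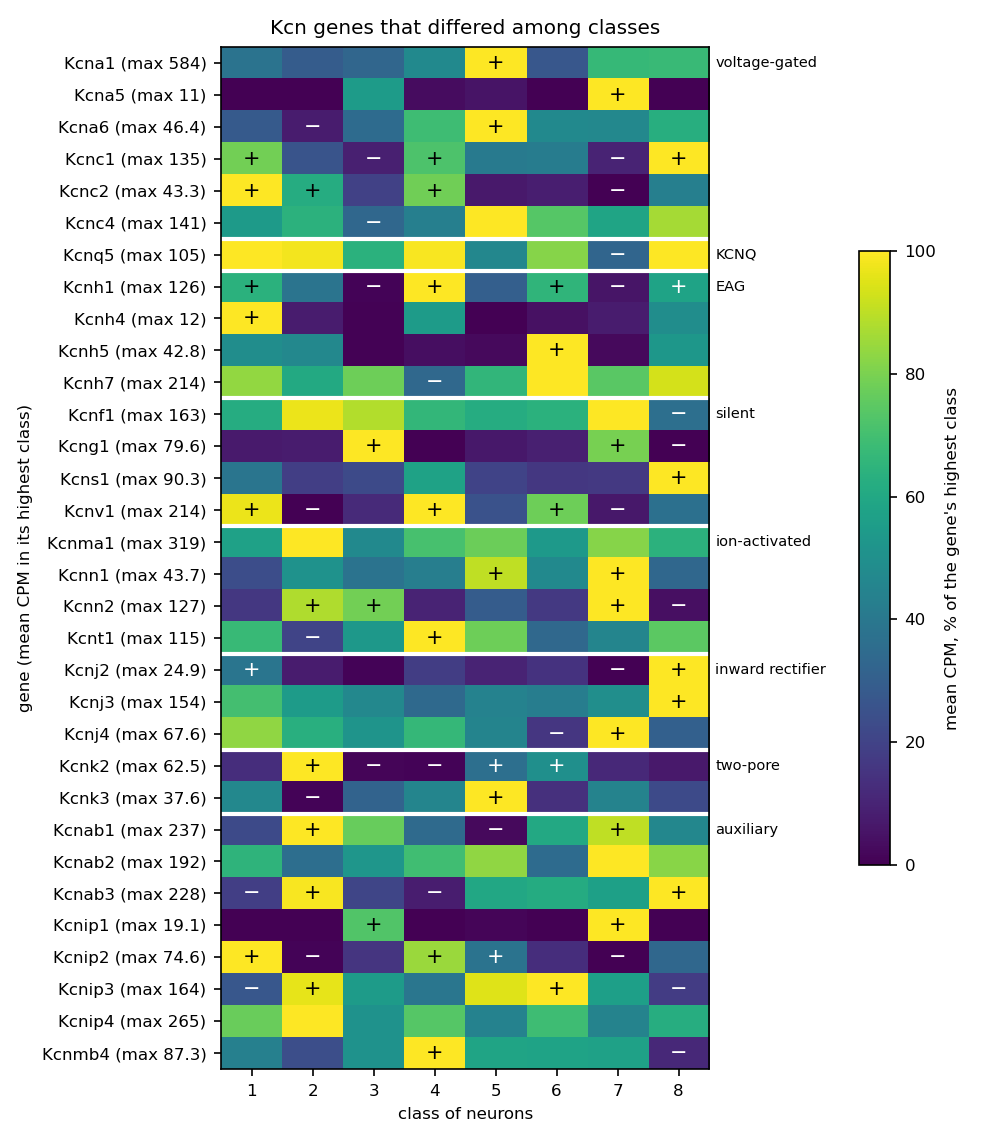
Mean CPM of 32 of the 33 Kcn genes that differed among the 8 tested classes, as a percent of each gene's highest class (colour), with classes across and genes down in family blocks. A plus or minus marks a class in which the gene was called higher or lower. The call is against the mean of the fitted log2 levels of the other 7 classes. Kcnv1, Kcnip2 and Kcnh1 share bright cells in classes 1 and 4 and dark cells in class 7, while Kcng1 and Kcnip1 are bright in classes 3 and 7.

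Silent subunits showed some of the widest differences. Kcnv1, a silent subunit that alters Kcnb channels, read 164, 217 and 244 CPM in animals 1, 2 and 3 in class 1, and 192, 171 and 280 CPM in class 4. In class 6 it read 173 and 162 CPM in animals 2 and 3. In class 2 the same gene read 0.424, 1.81 and 0.26 CPM. Thus no animal's value in classes 1, 4 or 6 came near any value in class 2, and the Thsd7a class was close to empty of Kcnv1. Against the mean of the other classes Kcnv1 was higher in class 1 (log2 difference 2.70 ± 0.26 SE, adjusted p = 4.52e-06), class 4 (2.75 ± 0.27, adjusted p = 1.73e-06) and class 6 (2.07 ± 0.32, adjusted p = 0.000857), and lower in class 2 (-6.39 ± 0.54, adjusted p = 1.39e-07). It also fell in class 7, by 1.76 ± 0.37 (adjusted p = 0.007), to 8.50, 16 and 17.9 CPM, although this call was lost without animal 2 (adjusted p = 0.244) and without animal 3 (0.0814). A count of Kcnv1 was found in 90.1% of the cells of class 1 and 4.92% of those of class 2, and thinning every cell to 1 depth gave 86.6% and 2.61%.

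Kcng1, another silent subunit, was highest in the 2 layer 5 extratelencephalic-like classes among those tested. It read 68.5 and 90.7 CPM in animals 1 and 2 in class 3 and 64.6, 68.5 and 56.7 CPM in the 3 animals in class 7. In the other 6 tested classes its highest single value was 12.4 CPM, in animal 2 of class 6, so the values of classes 3 and 7 did not overlap with the rest. The adjusted p was 0.000191 for class 3 and 1.48e-05 for class 7. In class 8 no count of Kcng1 was found in 39 cells, which allows a share of cells with a count of up to 9.03% (exact 95% interval), and the call of class 8 as lower (adjusted p = 0.0243) was lost without animal 1 (0.0899). Fitted differences of Kcng1 are not given because 1 class had no count. Outside the tests, Kcng1 read 79.1 CPM in the layer 6b-like class 10 (7 of 11 cells) and 72 CPM in class 11 (5 of 11 cells), so a high level was not particular to classes 3 and 7.

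Of the remaining silent subunits, Kcns1 was higher in class 8, at 51.5 and 129 CPM in animals 2 and 3 against a mean of 24.5 CPM in the other classes (1.91 ± 0.40, adjusted p = 0.00844). Its 2 values there differed from each other by more than the class 4 values did (61.2, 35.7 and 59.1 CPM), and animal 2 of class 8 fell within the range of class 4. Kcnf1 was lower in class 8, at 90.4 and 29.0 CPM (-1.10 ± 0.29, adjusted p = 0.0306), a call lost without animal 1 (0.0797). Kcns3 read 18.7, 7.52 and 18.1 CPM in class 7 and was called higher there (adjusted p = 0.0213). That call was lost without animal 1 (adjusted p = 0.0649) and without animal 3 (0.393), and class 3, at 18.9 and 13.3 CPM, was as high. Kcng4 was called higher in class 4, at 7.14, 7.36 and 11.5 CPM (adjusted p = 0.0091), and this was lost without animal 1 (0.10) and animal 3 (0.167). Kcng2 and Kcns2 were tested and did not pass.

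**Figure D2:**
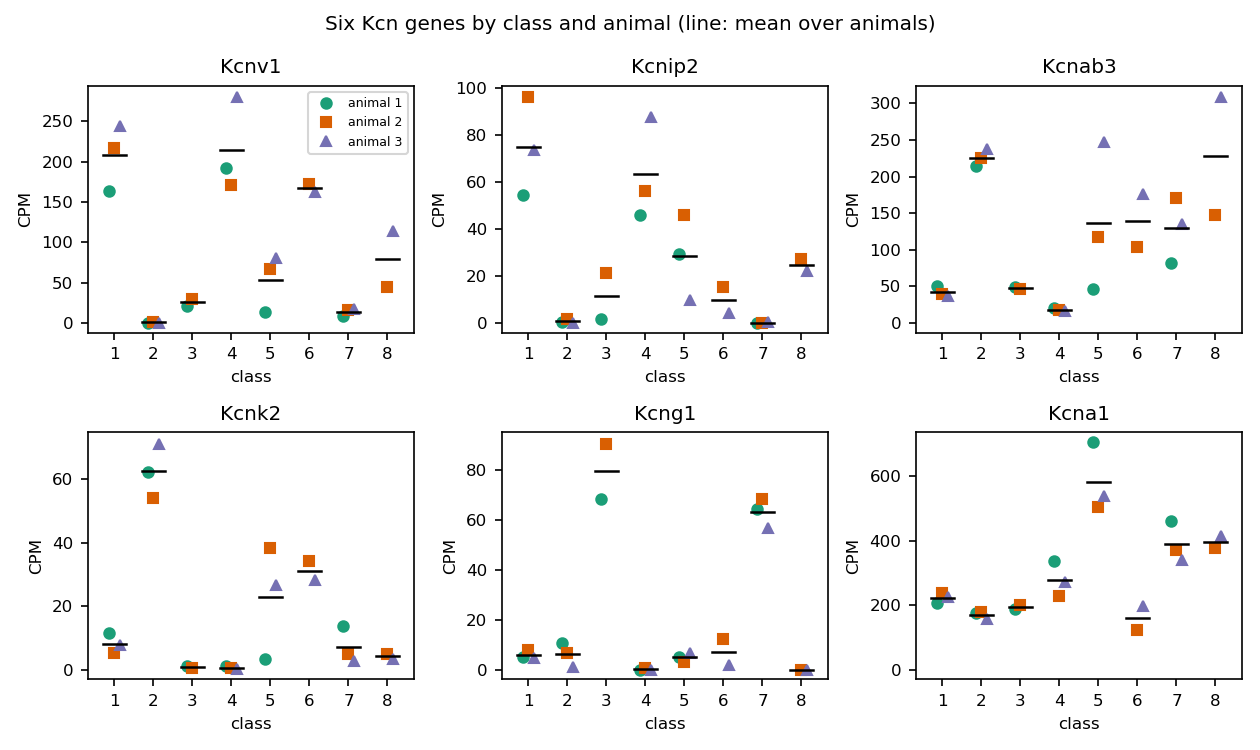
CPM of Kcnv1, Kcnip2, Kcnab3, Kcnk2, Kcng1 and Kcna1 (one panel each, linear axes) in the 8 tested classes, with 1 point per animal and class and a line at the mean over animals. Kcnv1 lies between 162 and 280 CPM in classes 1, 4 and 6 and under 2 CPM in class 2, and Kcng1 lies between 56.7 and 90.7 CPM in classes 3 and 7 and at most at 12.4 CPM in the other 6 tested classes.

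All 8 auxiliary subunit genes in the table differed among the classes, and Kcnab1, Kcnab3, Kcnip2 and Kcnip3 did so under every alternative run. The other 4 lost that call with sums per sample, and Kcnab2, Kcnip4 and Kcnmb4 also without 2 of the animals in turn. The Kcnab genes encode cytoplasmic beta subunits that bind Kcna channels, and the 3 of them had different class patterns. Kcnab3 read 214, 225 and 237 CPM in class 2, against 50.4, 39.1 and 37.5 CPM in class 1 and 20.4, 17.4 and 16.4 CPM in class 4. Every value in class 2 was thus above every value in classes 1 and 4, by a factor of over 4. It was called higher in class 2 (1.55 ± 0.25, adjusted p = 0.000283), lower in class 4 (-2.68 ± 0.36, adjusted p = 6.59e-05) and lower in class 1 (-1.22 ± 0.31, adjusted p = 0.0242). The class 1 call was lost without animal 2 (adjusted p = 0.375) and without animal 3 (0.341). In class 8 it read 147 and 309 CPM and was called higher (1.35 ± 0.31, adjusted p = 0.014), although animal 2 there lay under the 176 CPM of animal 3 in class 6. In class 5 the 3 animals ranged from 46.6 to 247 CPM, a spread wider than the difference between most classes.

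Kcnab1, which confers fast inactivation on Kcna channels, was lowest in class 5. It read 3.46, 12.2 and 3.36 CPM in the 3 animals there, against 264, 235 and 211 CPM in class 2 and 206, 222 and 215 CPM in class 7. The groups did not overlap. Kcnab1 fell by 4.20 ± 0.46 on the log2 scale in class 5 (adjusted p = 8.62e-06) and was higher in class 2 (1.57 ± 0.27, adjusted p = 0.000534) and class 7 (1.42 ± 0.27, adjusted p = 0.00296). Among the tested classes the layer 6 corticothalamic-like class thus had the lowest level of this beta subunit and the highest level of Kcna1, described below. Kcnab2 differed among the classes too (range 1.49, adjusted p = 0.00216), from a mean of 67.4 CPM in class 6 to 192 CPM in class 7, but was called in no single class, and the difference was lost without animal 2 (adjusted p = 0.0935) and animal 3 (0.0699).

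The Kcnip genes encode calcium-binding proteins that join Kcnd channels, which carry the fast transient potassium current. Kcnip2 read 54.3, 95.9 and 73.6 CPM in class 1 and 45.9, 56.2 and 87.7 CPM in class 4. In class 2 it read 0.424, 1.81 and 0.173 CPM, and in class 7 it had 4 counts in all, at 0, 0 and 0.509 CPM. It was higher in class 1 (3.55 ± 0.44, adjusted p = 4.18e-05) and class 4 (3.40 ± 0.46, adjusted p = 5.68e-05) and lower in class 7 (-5.67 ± 0.94, adjusted p = 0.000798) and class 2 (-4.15 ± 0.77, adjusted p = 0.00114). The class 2 call was lost without animal 3 (adjusted p = 1.00). A call as higher in class 5 (29.4, 46.1 and 9.79 CPM, adjusted p = 0.0367) was lost without animal 1 (0.241) and animal 2 (0.102). Classes 1 and 4 thus carried both Kcnv1 and Kcnip2, and class 2 carried next to none of either. The Kcnd genes themselves (Kcnd1, Kcnd2, Kcnd3) did not pass in any class or over all classes.

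Kcnip1 had the pattern of Kcng1. It read 13.7 and 14.2 CPM in class 3 and 19.6, 23.4 and 14.5 CPM in class 7, and at most 0.839 CPM in any animal of the other tested classes, where classes 2, 6 and 8 had no count. The adjusted p was 0.000525 in class 3 and 2.91e-05 in class 7. Its counts came from a minority of cells, 15.6% (8.32 to 25.6%, exact 95% interval for counting error only) of class 3 and 29.7% (18.9 to 42.4%) of class 7. With sums taken per sample and not per animal, the class 3 call was lost (adjusted p = 0.148, over alternatives that gave 6.44e-05 to 0.148).

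Kcnip3, known both as a Kcnd partner and as a calcium-dependent repressor of transcription, was lower in class 1 (54.3, 40.7 and 38.6 CPM, adjusted p = 0.0022) and class 8 (31.2 and 26.9 CPM, -1.71 ± 0.27, adjusted p = 0.000846). Classes 2, 5 and 6 were its highest, with means of 158, 156 and 164 CPM that lay within each other's spread, and class 2 (adjusted p = 0.00036) and class 6 (0.00332) were called higher. In the untested classes Kcnip3 read 411 CPM in class 10 (11 of 11 cells) and 190 CPM in class 9 (22 of 23 cells). The class 2 call fell under the minimum difference in 4 of 11 alternatives, at 0.75 without animal 3 and 0.80 without class 8, and the class 6 call was lost with sums per sample (adjusted p = 0.169) and without class 8 (difference 0.93). The class 1 call was lost without animal 2 (adjusted p = 0.0544). Kcnip4 differed over all classes by a range of 1.17 (adjusted p = 0.0247), which was lost without animal 1 (0.131) and animal 3 (0.0627), and was called in none. Kcnmb4, the neuronal beta subunit of the large-conductance calcium-activated channel, was higher in class 4, at 104, 91.0 and 66.7 CPM (1.40 ± 0.29, adjusted p = 0.00426), and lower in class 8, at 18.1 and 2.07 CPM (-2.25 ± 0.49, adjusted p = 0.0103). The class 4 call was lost without animal 1 (adjusted p = 0.09) and animal 2 (0.0682). Kcnmb4 read 101, 239 and 130 CPM in the untested classes 9, 10 and 11.

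Kcnip2 and Kcnh1 were both called higher in classes 1 and 4 and lower in class 7, although the class 1 call of Kcnh1 was lost without animal 1 (adjusted p = 0.164) and animal 2 (0.104). Kcna5 was called higher in class 7, a call lost without animal 3 (adjusted p = 0.19). Each of the 3 has 1 start in the RefSeq promoter table of GRCm38.p6, and the 250 bases upstream of that start are shown, 5′ to 3′ on the gene's strand, to let the sequences be set beside these patterns. Capitals mark the GC box letters GGGCGG, found on either strand (CCGCCC as read here when on the other strand). The Kcnip2 stretch is chr19:45816064-45816313 on the minus strand, the Kcnh1 stretch is chr1:192190527-192190776 on the plus strand, and the Kcna5 stretch is chr6:126535556-126535805 on the minus strand.
Kcnip2: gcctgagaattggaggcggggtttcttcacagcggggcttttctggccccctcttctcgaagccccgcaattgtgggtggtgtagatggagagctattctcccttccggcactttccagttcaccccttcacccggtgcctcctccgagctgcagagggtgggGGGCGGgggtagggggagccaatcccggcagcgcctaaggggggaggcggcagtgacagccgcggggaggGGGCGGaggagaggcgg
Kcnh1: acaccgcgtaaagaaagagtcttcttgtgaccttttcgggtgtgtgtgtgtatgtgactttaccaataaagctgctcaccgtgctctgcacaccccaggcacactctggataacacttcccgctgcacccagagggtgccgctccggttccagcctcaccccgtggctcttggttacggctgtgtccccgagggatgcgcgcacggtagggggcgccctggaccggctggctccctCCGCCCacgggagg
Kcna5: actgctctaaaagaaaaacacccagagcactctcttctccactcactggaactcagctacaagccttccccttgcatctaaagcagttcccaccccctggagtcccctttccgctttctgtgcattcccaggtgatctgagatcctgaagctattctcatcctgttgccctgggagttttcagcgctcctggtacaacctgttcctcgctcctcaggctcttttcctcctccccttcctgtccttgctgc

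The G and C content of these stretches is 66.8% for Kcnip2, 62% for Kcnh1 and 53.2% for Kcna5, and the GC box letters occur 2 times, 1 time and 0 times in them. Of the 99 Kcn genes, 72 matched the table by symbol, with 97 starts. The GC box letters were in 44.3% of these 97 upstream stretches and in 32.7% of all 32851 stretches of the same length. The letters TATAAA were in 3.09% of the Kcn stretches and 12.4% of all, and TGACGTCA, the full cyclic AMP response element, in 0% and 1.55%. A match of letters is a description and names no bound factor, and these letters do not tell which start a neuron used.

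Among the pore-forming voltage-gated subunits, Kcna1, a low-threshold axonal channel that limits repetitive firing, stood highest in the layer 6 corticothalamic-like class. It read 707, 506 and 539 CPM in class 5, while the highest value in any other tested class was 461 CPM, in animal 1 of class 7. Class 11, outside the tests with 11 cells, read 367, 851 and 439 CPM in the 3 animals, which overlapped with class 5. It was higher in class 5 by 1.23 ± 0.12 (adjusted p = 1.76e-06) and was called in no other tested class. In order of the mean, class 5 was followed by class 8 (396 CPM), class 7 (391), class 4 (278), class 1 (223), class 3 (193), class 2 (169) and class 6 (159). The values of classes 8 and 7 overlapped, and those of class 6 overlapped with those of classes 3 and 2. The values of class 3 (187 and 200 CPM) lay above those of class 2 (175, 178 and 156 CPM), and these classes were not tested against each other. All 71 cells of class 5 and all 64 of class 7 had a count of Kcna1, against 49 of 70 in class 6.

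Kcna6, of the same group, was also higher in class 5 (53.6, 56.8 and 28.8 CPM, 1.46 ± 0.32, adjusted p = 0.00739) and was lower in class 2 (4.66, 4.08 and 1.82 CPM, -2.84 ± 0.45, adjusted p = 0.000261). The class 5 call was lost without animal 1 (adjusted p = 0.0558) and without animal 2 (0.0668). Kcna5 was near 0 in all tested classes but the 2 layer 5 extratelencephalic-like ones, at 7.78 and 4.27 CPM in class 3 and 8.50, 2.18 and 22.2 CPM in class 7. Only class 7 was called (adjusted p = 0.00331), and without animal 3 it was not (0.19).

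The Kcnc genes encode channels that open at high voltage and shorten the spike of fast-firing neurons. Of these, Kcnc1 was lower in both layer 5 extratelencephalic-like classes. It read 7.04 and 17.1 CPM in class 3 and 0.85, 13.7 and 25.6 CPM in class 7. In class 1 it read 90.5, 115 and 114 CPM, in class 4 102, 96.6 and 93.2 CPM, and in class 8 117 and 152 CPM. It was called lower in class 3 (-2.08 ± 0.49, adjusted p = 0.0229) and class 7 (-2.04 ± 0.40, adjusted p = 0.00345), and higher in classes 1, 4 and 8 (adjusted p of 0.00684, 0.0131 and 0.0168). The class 7 call was lost without animal 2 (adjusted p = 0.0613) and the class 3 call without animal 3 (0.0877), which holds no sum of class 3 but serves the other classes. Those of class 1 (0.146) and class 4 (0.153) were lost without animal 2, and that of class 4 also without animal 1 (0.176).

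Kcnc2 had 1 count in all of class 7, which allows no fold change, against 55.6, 31.8 and 42.5 CPM in class 1, 54.1, 25 and 22.6 CPM in class 4 and 21.2, 35.2 and 23.9 CPM in class 2. The adjusted p was 0.00107 for class 7 and 0.00163 for class 1. The calls of class 2 (adjusted p = 0.0119) and class 4 (0.00769) were lost without animal 1 (0.0632 and 0.154). Class 7, with the second highest Pvalb of the tested classes, thus had the least Kcnc2, whereas class 2, with the highest, had 637 counts of it. Kcnc4 was called lower in class 3 (55.9 and 38.6 CPM, adjusted p = 0.0286), and this was lost without animal 3 (0.122). Kcna2, Kcna4, Kcnd1, Kcnd2 and Kcnd3 were among the genes of this family that did not pass over all classes.

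The EAG-type gene Kcnh1 encodes a slow delayed rectifier. It read 82.1, 81.5 and 77.7 CPM in class 1, 150, 116 and 110 CPM in class 4, 75.0 and 89.5 CPM in class 6 and 69.1 and 77.3 CPM in class 8. In class 3 it read 2.59 and 0.341 CPM and in class 7 10.2, 3.76 and 8.14 CPM. Classes 1, 4 and 8, which were intratelencephalic-like, and class 6 were thus high and the extratelencephalic-like ones low, with no overlap between them. It was lower in class 3 (-5.48 ± 0.61, adjusted p = 2.17e-05) and class 7 (-2.49 ± 0.39, adjusted p = 0.000426) and higher in class 4 (2.24 ± 0.26, adjusted p = 1.32e-05). The calls as higher in class 1 (adjusted p = 0.00137), class 6 (0.00509) and class 8 (0.0111) were lost without animal 1 (0.164, 0.182 and 0.204), and that of class 1 also without animal 2 (0.104).

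Kcnh5, the close relative of Kcnh1, read 58.7 and 26.8 CPM in class 6 and was called higher there (adjusted p = 0.0272, lost without animal 1 at 0.0681). Classes 1, 2 and 8 held means of 19.9 to 22.6 CPM, and class 3 had 2 counts. Kcnh4 was called higher in class 1, at 8.4, 16.4 and 11.1 CPM (adjusted p = 0.00924), a call lost without animal 1 (0.0626) and animal 2 (0.178), and class 5 had no count of it. Kcnh7 was lower in class 4 (77.6, 61.1 and 78.7 CPM, -1.22 ± 0.24, adjusted p = 0.00302), a call lost without animal 2 (0.126). Of the KCNQ genes, whose channels carry the muscarine-sensitive M current, Kcnq5 was lower in class 7 (31.5, 22.0 and 49.3 CPM, -1.33 ± 0.28, adjusted p = 0.00579), and this was lost without animal 1 (0.066) and animal 2 (0.0673). Kcnq3 did not pass.

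Among the ion-activated channels, Kcnn2 encodes a small-conductance calcium-activated channel of the after-hyperpolarization. It read 111, 92 and 133 CPM in class 2, 101 and 98.3 CPM in class 3 and 132, 98.2 and 152 CPM in class 7. The highest value elsewhere was 58.2 CPM, in animal 3 of class 5, so these 3 classes stood apart. Kcnn2 was higher in class 2 (2.00 ± 0.34, adjusted p = 0.000523), class 3 (2.01 ± 0.42, adjusted p = 0.00973) and class 7 (2.20 ± 0.34, adjusted p = 0.000415) and lower in class 8, which held 15 counts (-3.35 ± 0.70, adjusted p = 0.00768). Kcnn1 was called higher in class 7 (45.1, 46.3 and 39.7 CPM) and class 5 (38.0, 23.2 and 57.6 CPM), but each of these 2 calls was lost without any 1 of the animals. Kcnt1, a sodium-activated channel, was lower in class 2, at 27.1, 26.3 and 16.9 CPM (-1.62 ± 0.32, adjusted p = 0.00217). Its call as higher in class 4 (adjusted p = 0.0191) was lost without animal 1 (0.0737) and animal 3 (0.0867). Kcnma1, the large-conductance channel, differed over all classes by a range of 1.05 (adjusted p = 0.00911) and was called in no class, and the difference was lost without animal 1 (0.147), without animal 2 (0.312), with sums per sample (range 0.86) and at resolution 0.5 (range 0.77).

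Of the two-pore channels, which carry leak current at rest, Kcnk2 and Kcnk3 were opposite in class 2, though both were called higher in class 5. Kcnk2, a channel gated by stretch and lipids, read 62.3, 54.2 and 71.2 CPM in class 2 and was in 82% of its cells. In class 3 it had 6 counts and in class 4 it had 4. Kcnk3, an acid-sensitive channel, read 0.424, 0.113 and 0.433 CPM in class 2 and 53.6, 32.5 and 26.6 CPM in class 5. Among the tested classes, the one with most Kcnk2 thus had the least Kcnk3. Kcnk2 was higher in class 2 by 3.72 ± 0.42 (adjusted p = 5.51e-06), and Kcnk3 was lower there (-5.35 ± 0.73, adjusted p = 5.23e-05) and higher in class 5 (2.32 ± 0.41, adjusted p = 0.000963). Calls of Kcnk2 as lower in class 3 (adjusted p = 0.0289) and class 4 (0.0016) were lost without animal 3 (0.0995 and 0.0764). Its call as higher in class 5 (adjusted p = 0.00486; 3.46, 38.3 and 26.6 CPM) was lost without animal 2 (0.36) and animal 3 (0.0637), and the call in class 6 (0.00609) with sums per sample (0.592). Kcnk4 was called lower in class 7 (adjusted p = 0.0494), which was lost under 7 of 9 alternatives, and Kcnk1, Kcnk6, Kcnk10 and Kcnk12 did not pass.

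Of the inward rectifiers, Kcnj2 was higher in class 8, at 26.3 and 23.5 CPM (adjusted p = 0.00609), above every other value, the next being 12.6 CPM in animal 3 of class 1. Its calls in class 1 (adjusted p = 0.0386) and class 7 (0.0301) were lost without 3 and 2 of the animals in turn. Kcnj3, a subunit of G protein-gated rectifiers, was higher in class 8 (119 and 189 CPM, 1.15 ± 0.26, adjusted p = 0.0118), where animal 2 lay under the 142 CPM of animal 1 in class 1. Kcnj4 was lower in class 6, at 6.20 and 15.2 CPM (-1.82 ± 0.34, adjusted p = 0.00499), and this was lost with sums per sample (0.065). Its call as higher in class 7 (adjusted p = 0.00508) was lost without any 1 of the animals (0.0841 to 0.267).

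Kcnj10 is known as the main inward rectifier of astrocytes. It read 5.08, 8.16 and 4.77 CPM in class 2, from 13 of 122 cells, and was called higher there (adjusted p = 0.0125), while single sums in classes 4 and 7 reached 5.12 and 6.80 CPM. The astrocyte markers did not all move with it. Slc1a3 and Gja1 were highest in class 2 among the tested classes, at 7.31 and 2.67 CPM. Aqp4 was higher in class 3 (3.58 against 1.72 CPM) and Gfap in class 6 (0.285 against 0.258 CPM). Aldoc was lowest in class 2, at 27.2 CPM. Without Aldoc the markers summed to 12 CPM in class 2 and to 0.175 to 3.7 CPM in the other tested classes. Their part in the Kcnj10 result was not tested. The call was lost without animal 2 (adjusted p = 0.259), without animal 3 (0.06) and with DESeq2 (0.164).

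Across the 8 classes there were 81 calls of a Kcn gene in a class, 51 higher and 30 lower, in 35 genes. Class 7 had 8 higher and 8 lower of 61 tested (13.1% each, against a background of 2.72% and 1.23% of all genes). Class 2 had 7 higher and 6 lower (11.5% and 9.84%, background 4.82% and 2.22%). Class 4 had 8 and 3 (background 3.62% and 1.57%) and class 1 had 7 and 2 (background 3.11% and 0.677%). Class 5 had 7 and 1 (background 3.05% and 2.3%), class 8 had 6 and 5 (background 1.99% and 1.97%), class 6 had 5 and 1 (background 1.31% and 0.293%) and class 3 had 3 and 4 (background 1.61% and 0.797%). The share of Kcn genes called was thus above that of all genes in each class and direction, except for lower calls in class 5. Without animal 1, 2 or 3 the calls numbered 52, 41 and 51.

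**Figure D3:**
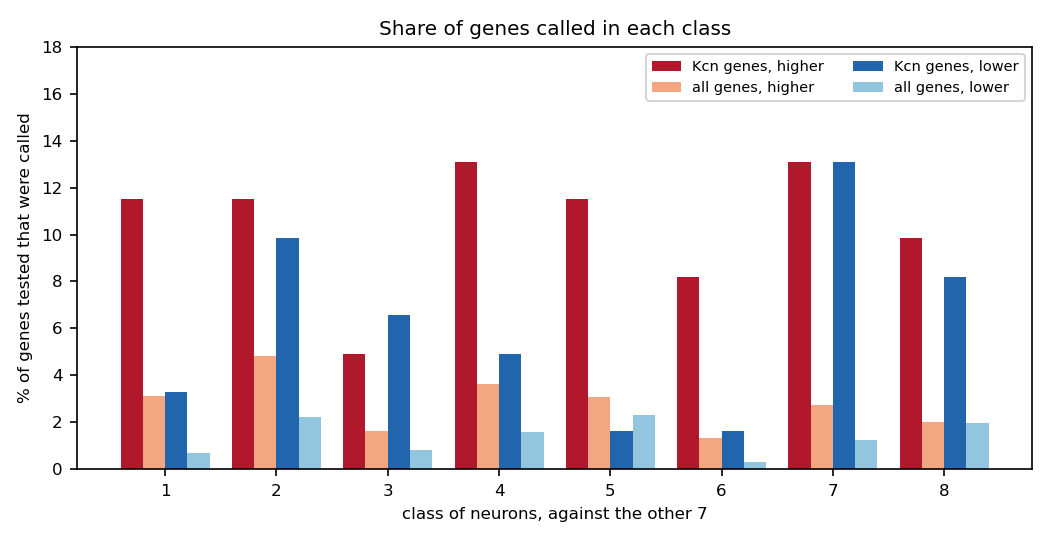
Percent of genes tested that were called higher (reds) or lower (blues) in each of the 8 classes, for the 61 Kcn genes tested (dark bars) and all 13297 genes tested (light bars), on an axis from 0. The dark bars are above the light ones beside them in every class except for lower calls in class 5, and class 7 has the tallest blue bar at 13.1%.

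Along the axis of the retrosplenial cortex no Kcn gene was called. On simulated counts the posterior against anterior test recovered 40 of 200 genes changed by 1.5 on the log2 scale. In the simulation no class or animal differed, and the dispersion was estimated without the block of animal and class. The recovery therefore does not measure what the test could find in these cells, and changes of that size may be missed. Sums of at least 10 cells per animal, class and level left 23 sums from animals 2 and 3, none from animal 1, and 54 Kcn genes tested within class and animal. Of these, 0 were called by edgeR between medium and anterior levels and 0 between posterior and anterior levels, against a background of 0% of 11213 genes in both, and DESeq2 called 0 Kcn genes in both, where it called 2 and 15 of all genes. At an unadjusted p under 0.05 there were 2 Kcn genes (3.7%, against 3.77% of all genes) and 1 (1.85%, against 4.42%). The smallest unadjusted p values were those of Kcnh3, an ELK-type channel of the forebrain, chosen after its values were seen. In class 1 it read 140, 137 and 81.2 CPM at the anterior, medium and posterior levels of animal 2, and 127, 101 and 115 CPM in animal 3. In class 5 it read 75.2 and 35.2 CPM at the anterior and medium levels of animal 2 and 50.2 and 17.9 CPM in animal 3. The anterior value was the higher in these pairs, but in class 2 of animal 2 it was the lower, at 64.1 against 84.5 CPM. The fitted differences were -0.67 ± 0.23 for medium (p = 0.00869, adjusted p = 1.00) and -0.76 ± 0.27 for posterior (p = 0.0111, adjusted p = 0.939), so no difference was detectable with 2 animals.

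In the sections, spots were clustered without the Kcn genes and with each gene centred within its section. This gave 11 zones, and the 10 with no fewer than 10 spots in each section were tested. Fewer cells of a type and less RNA per cell cannot be told apart in spots. Of the 99 Kcn genes 58 passed the filter on low counts and 41 did not, including the 9 without a count. Of the 58 tested, 36 differed among the zones (62.1%, against a background of 19.2% of all 10483 genes), of which 23 did so under every alternative run, and the median range was 1.59 against 1.01 for all genes. There were 34 calls of a gene in a zone, 19 higher and 15 lower, in 22 genes.

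Zone 2, led by Tshz2, Nrep, C1ql2 and Slc17a6 (123 spots in S4 and 149 in S8), had 5 Kcn genes higher and 4 lower, which is 8.62% and 6.9% against a background of 1.56% and 1.13%. Kcnab1 read 180 and 172 CPM in S4 and S8, and no other zone had a value above 117. Kcnab3 read 53.5 and 84.2 CPM there, overlapping with the 94.9 and 60 CPM of zone 8. Kcnn1 read 27.3 and 20.6 CPM, above every value of the other zones. Lower in the same zone were Kcnip2, at 34.8 and 41.1 CPM against a mean of 83.6 CPM in the other zones, and Kcnv1, at 17.4 and 40.1 CPM against 63.3 CPM. These 2 were the lowest values of all zones but for Kcnv1 in S8, which lay just above the 38.2 CPM of zone 10 and the 39.9 CPM of zone 9. The log2 differences were 1.25 ± 0.13 for Kcnab1 (adjusted p = 9.62e-11), 1.30 ± 0.30 for Kcnn1 (0.00189), -1.08 ± 0.18 for Kcnip2 (1.63e-05) and -1.08 ± 0.21 for Kcnv1 (0.000172), and Kcnab3 had an adjusted p of 1.09e-07.

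Set beside the cells, some of these genes had the same direction in class 2, the Thsd7a and Hsd11b1 class. Kcnab1 and Kcnab3 were called higher in both class 2 and zone 2, and Kcnip2 and Kcnv1 were called lower in both. Kcnj10 was also called higher in both, though its class 2 call was lost with DESeq2 and without animal 2 or 3. The share of all genes called alike in class 2 and zone 2 is not given here, so the extent of the match cannot be judged. The choice of this class and zone to set side by side was made after their values were seen. Kcnn1 was not called in class 2 (24.2, 23.8 and 18.6 CPM). Conversely Kcnk2, the gene of class 2 with 62.5 CPM on average, read 28.6 and 31.3 CPM in zone 2, under the mean of the other zones, and Kcnk3, nearly absent from class 2, read 28.6 and 27.4 CPM there. A zone holds several cell types, and the match between class 2 and zone 2 rests on no shared cells.

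Kcnj10 was also higher in zone 2, at 168 and 152 CPM against 75.1 CPM (1.13 ± 0.14, adjusted p = 4.24e-08). The 5 astrocyte markers summed to 1850 CPM in zone 2, where the other tested zones ran from 970 to 2540 CPM, and zone 10, with the highest sum, read 75.6 and 147 CPM of Kcnj10. The oligodendrocyte markers summed to 3050 CPM in zone 2 and to 799 to 5510 CPM in the other tested zones. The part of these cells in the level of Kcnj10 was not tested. Kcns3 (adjusted p = 0.0151) was higher in zone 2 as well, a call lost with DESeq2 (0.0671). Kcnq1ot1, an antisense transcript that overlaps Kcnq1 and is no channel subunit, was called lower (37.3 and 26.4 CPM, adjusted p = 0.00888), which was lost with DESeq2 (0.304) and without the section block (0.128). Kcnt2 was called lower there (adjusted p = 0.0271) and lost that call under 4 of 6 alternatives.

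**Figure D4:**
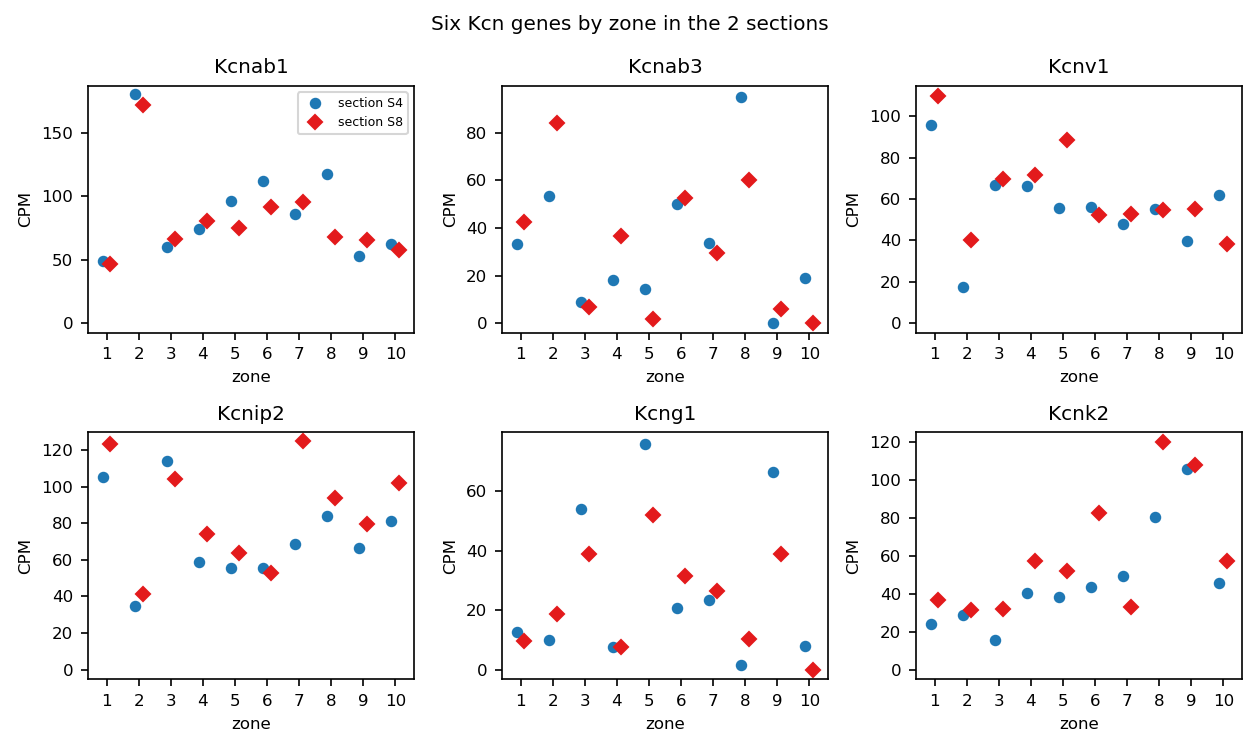
CPM of Kcnab1, Kcnab3, Kcnv1, Kcnip2, Kcng1 and Kcnk2 (one panel each, linear axes) in the 10 tested zones, with 1 point per section. Kcnab1 peaks in zone 2 at 180 and 172 CPM, where Kcnip2 and Kcnv1 are low, and Kcng1 is above 37 CPM in both sections in zones 3, 5 and 9.

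Zone 3, led by Trh, Dlk1 and Calb2 (117 and 137 spots), was higher for 2 silent subunits and lower for 4 Kcn genes (background 2.31% and 2.32%). Kcng2, which was at 2.11 CPM on average in the cells and differed among no classes, read 29.3 and 27.5 CPM in zone 3, and the highest value elsewhere was 19.7 CPM, in S8 of zone 7 (adjusted p = 9.85e-07). Kcng1 read 54.1 and 39.0 CPM in zone 3 and 76.0 and 51.9 CPM in zone 5, a zone led by Ccn2 and Nr4a2 in which Kcng1 was itself among the 10 leading genes (138 and 81 spots). In zone 8 it read 1.58 and 10.4 CPM. The adjusted p was 2.97e-06 for zone 3 and 1.19e-09 for zone 5, where it was the sole Kcn gene called (background 0.83% higher and 0.401% lower). Its calls as lower in zones 4 and 8 (adjusted p of 0.0233 and 0.0199) were lost with DESeq2 (0.0739 and 0.0964). Lower in zone 3 were Kcnab3 (9.02 and 6.87 CPM, adjusted p = 0.00211), Kcnq5 (25.9 and 13.7 CPM, -1.42 ± 0.25, adjusted p = 1.9e-05), Kcnk2 (15.8 and 32.1 CPM, -1.13 ± 0.23, adjusted p = 0.00018) and Kcnb2, whose call (adjusted p = 0.0284) was lost with DESeq2 (0.132).

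Zone 8, led by Rspo1 and Rorb (68 and 55 spots), had 6 Kcn genes higher and 2 lower (10.3% and 3.45%, background 1.28% and 0.601%). Kcnab3 read 94.9 and 60 CPM (adjusted p = 2.15e-07), Kcnk2 read 80.7 and 120 CPM (1.16 ± 0.19, adjusted p = 1.82e-05) and Kcnh5 read 17.4 and 15.7 CPM (adjusted p = 0.00016). For Kcnh5 no other zone exceeded 6.52 CPM, so its 2 values stood apart. Kcnh1 read 87.0 and 67.9 CPM (1.05 ± 0.21, adjusted p = 0.000434) and Kcnh7 read 106 and 117 CPM (1.04 ± 0.21, adjusted p = 0.000411), so 3 of the 5 EAG-type genes tested in the sections were called higher in this zone. Without zone 9 the differences of Kcnh1 and Kcnh7 were 0.96 and 0.94, under the minimum, which leaves Kcnh5. Kcnt2 was called higher too (52.2 and 39.2 CPM, adjusted p = 0.00778), a call lost without the section block (0.0558). Kcnd3 was lower, at 19.0 and 23.5 CPM (-1.18 ± 0.29, adjusted p = 0.00754, and 0.0532 without the section block).

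In zone 4, led by Ighm, Foxp2 and Syt6 (111 and 117 spots), 3 Kcn genes were lower (5.17%, background 1.55%) and none higher (background 1.64%). Kcnb2, a delayed rectifier, read 7.49 and 3.31 CPM against 25.3 CPM (-2.10 ± 0.43, adjusted p = 0.000349), and Kcnj16, which is known to pair with Kcnj10, read 9.63 and 3.31 CPM (-1.59 ± 0.39, adjusted p = 0.00338). Zone 6, led by Myl4 and Fezf2, had Kcnab3 higher (49.9 and 52.5 CPM, adjusted p = 0.00164; background 0.477%), a call lost without the section block (0.0514). Zone 1, led by Cux2, had Kcnj2 higher at 15.9 and 15.2 CPM (1.40 ± 0.37, adjusted p = 0.00957; background 1.13%), which was lost with DESeq2 (0.0521) and without the section block (0.06). In the cells Kcnj2 was highest in class 8, which was layer 2/3 intratelencephalic-like. No Kcn gene was called lower in zone 1 (background 0.754%), and none in either direction in zone 7 (background 0.0763% higher and 0% lower) or zone 10 (1.78% and 0.143%).

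Zone 9 rested on 12 spots in S4 and 99 in S8, and the RNA Gm42418 took 11.8% of its counts, against 1.97 to 5.94% in the other zones. It had 3 Kcn genes higher and 2 lower (background 0.782% and 0.773%). Kcna1 read 0 CPM in S4 and 53.2 CPM in S8 and was called higher (adjusted p = 0.00146), so the call rests on S8 alone. Kcnk2 read 106 and 108 CPM (1.12 ± 0.24, adjusted p = 0.00273). Kcng1 read 66.5 and 38.8 CPM (adjusted p = 0.029), Kcnj11, the pore subunit of the ATP-sensitive channel, had 2 counts (adjusted p = 0.00933) and Kcnab3 had 3 (adjusted p = 0.0484), and these 3 calls were lost without the section block (0.0965, 0.105 and 0.174). Leaving zone 9 out of the fit gave 33 Kcn genes that differed among the zones.

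The list of 19 genes outside the Kcn names whose products bind or modulate these channels was counted in the same fits. Of 15 tested in the cells, 7 differed among the classes, against a background of 16.1% of all genes (among them Dpp6, Cntnap2, Lgi1, Lrrc55, Lingo1 and Pex5l). Dpp6, a partner of Kcnd channels, was higher in class 8 and lower in class 5, with means of 167 and 21.3 CPM. Lgi1, a secreted partner of Kcna1 complexes, was lower in class 2, at 19.0 CPM on average against 108 CPM in class 7. Lrrc55, an auxiliary subunit of the large-conductance channel, had no count in class 2. Of 14 tested in the sections, 7 differed among the zones, against a background of 19.2% (among them Dpp6, Dpp10, Abcc8, Lrrc55, Pex5l and Hcn2), and Lrrc55 was higher in zone 2, at 25.6 CPM on average, whereas class 2 had none of it.

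Kcn genes differed widely in how many cells held a count of them. Kcna1 had a count in 679 of 765 cells (88.8%), Kcnv1 in 439 (57.4%), Kcng1 in 159 (20.8%) and Kcnip1 in 46 (6.01%), and the median over the 62 genes was 33.6%. A share depends on a gene's level and on depth, and a cell without a count may still express the gene.

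The 2 assays gave different levels for some genes. The tables were scaled separately, so a ratio between them sets 1 gene's CPM in cells beside its CPM in spots. The median ratio over the 62 genes was 1.09, and 5 genes lay beyond a factor of 5. Kcna1 read 275, 248 and 249 CPM in animals 1, 2 and 3 and 8.18 and 12.4 CPM in S4 and S8. Kcnj10 read 1.41 to 1.95 CPM in cells against 84.3 and 80.5 CPM in S4 and S8, Kcnq3 read 1.39 to 3.07 CPM against 93.4 and 100 CPM, and Kcna2 read 3.16 to 4.97 CPM against 129 and 184 CPM. Kcnn3 read 0.186 to 0.746 CPM against 6.64 and 10.0 CPM. No value of 1 assay overlapped with the other for these 5 genes. Kcnq3 and Kcna2, subunits that cortical neurons are known to express, had 296 and 541 counts in the cells and did not pass among the classes, and whether depth had a part in that was not tested. The strand and the annotation behind the counts are not given in the sources used here.

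**Figure D5:**
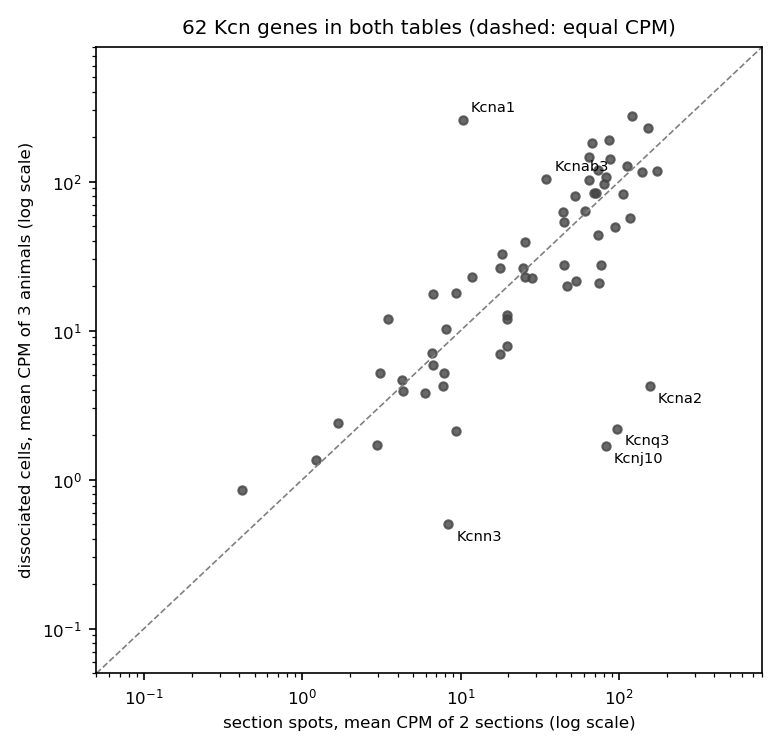
CPM of the 62 Kcn genes present in both tables, with the mean of 2 sections across and the mean of 3 animals up, both on log axes, and a dashed line at equal values. Kcna1 lies far above the line, and Kcna2, Kcnq3, Kcnj10 and Kcnn3 lie far below it.

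Of the 37 genes in the section table alone, Kcnk9, an acid-sensitive two-pore channel, had 585 counts (37.0 and 42.7 CPM in S4 and S8), Kcnb2 had 319 and Kcnj16 had 252. The antisense transcript Kcnq1ot1 had 920. Kcnk9 differed among the zones (range 1.23, adjusted p = 0.0148), which was lost with DESeq2 (0.221) and without the section block (0.218), and was called in none.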

How the data were processed

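RNA was measured in 765 dissociated cells (11 samples, 3 animals) and 1973 Visium spots (2 sections). The authors deposited both tables as whole-number counts per gene, and whether a count is a read or a molecule is not given in the sources used here. The submitters' processing notes name NCBIM37, mm10, Seurat and Space Ranger. All count columns were matched to an animal or a section (0 left over). The Kcn genes and all gene lists were chosen with earlier results of these data known.

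Clustering of cells and of spots used scanpy 1.11.5 (Python 3.11.15; 2000 variable genes, 30 components, 15 neighbours, Leiden resolution 1, seed 1) and left the Kcn genes out. The naming rule for classes was set after the clusters were seen, no doublet caller was run, and no cell was filtered out. Counts were summed per animal and class, per section and zone, or per animal, class and level, with at least 10 cells or spots per sum. Sums were tested with edgeR 4.0.16 (R 4.3.3; quasi-likelihood, TMM scaling, filterByExpr) over all genes, with the animal or section as a block, since sums of 1 animal or section share their source. Calls needed a Benjamini-Hochberg adjusted p under 0.05 and a log2 difference of at least 1 from the other groups. That difference is taken from the mean of the other groups' fitted log2 levels and not from their mean CPM. Groups with next to no counts lower this mean, so a gene can be called higher in a group whose CPM is close to the mean CPM of the others. CPM values in tested classes, zones and levels are counts scaled to TMM-adjusted library sizes, while those of marker genes, of classes outside the tests and of whole animals or sections use total counts, and SE is the log2 difference over the root of F. No fold is given where a group held 3 counts or fewer. With the block, p-values measure how far differences between groups varied from 1 animal or section to another. They do not measure the spread of levels between animals or sections. For levels the block was animal and class together. Sums of 1 animal there counted as separate, so p-values may be too small. Intervals cover counting error only. Without a stated strand, overlapping and antisense genes (Kcnq1ot1, Kcnab3os, Kcnd3os, Kcnmb4os1, Kcnmb4os2) cannot be separated from their partners.

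The rule for named genes took up to 4 higher and 2 lower Kcn calls per class and up to 3 higher and 1 lower per zone, by size. Other Kcn genes were named after their values were seen. On simulated counts, 149 of 200 genes changed by 3 on the log2 scale were recovered for class 7 against the other classes and 200 of 200 for zone 2 against the other zones, and 87 and 190 of 200 at a change of 1.5. For all classes together, with the change placed in class 7 alone, 111 of 200 were recovered at a change of 3 and 52 at 1.5. For posterior against anterior, 120 of 200 were recovered at a change of 3 and 40 at 1.5. The simulated counts held no other differences between classes, zones, animals or sections, and their dispersion was estimated without the block. These recoveries thus describe the simulation and do not measure the power of the tests on the real counts. Alternatives were DESeq2 1.42.0, RLE scaling, no filter, no block, sums per sample, other clusterings, each animal left out, thinned cells and, for levels, limma 3.58.1 on 1 value per animal. Results of a few genes are not reported here, although those genes stay in the fits and counts.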

Additional observations from a re-analysis of the deposited data

Results flagged for a closer look

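Classes 10 and 11, with 11 cells each, were too small for the tests, and 3 Kcn genes stood there at more than 3 times their highest level in any tested class. Kcnip1 reached 285 CPM in class 11, with 652, 399 and 218 CPM in animals 1, 2 and 3 and a count in 8 of 11 cells, against 17.8 CPM in the highest tested class. Kcna6 reached 164 CPM in class 11, with 245, 267 and 119 CPM in the 3 animals and a count in 10 of 11 cells, against 41.6 CPM. Class 11 stayed unnamed. It had 2 of 2 near-projecting markers raised, Tshz2 and Lypd1, which summed to 2750 CPM. Raised too were 2 of 3 retrosplenial markers (Tshz2 and Slc17a6) and 2 of 4 layer 5 extratelencephalic ones (Fezf2 and Bcl11b). None of these was among its 10 leading genes. Its interneuron markers summed to 521 CPM, of which Pvalb, a leading gene, gave 517, while Gad1 had no count. Kcnmb4 reached 239 CPM in class 10, which was layer 6b-like, with 287 and 233 CPM in animals 1 and 2, no cell in animal 3 and a count in 11 of 11 cells, against 77.8 CPM. None of these differences was tested.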

How the results depend on the processing

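Of the 33 Kcn genes that differed among classes, leaving out 1 animal in turn gave 19 to 22, and the 81 calls in single classes became 41 to 52. With fewer sums some classes drop out of these fits. With sums per sample, which keep fewer classes, there were 40 calls. In the zones, the 34 calls became 21 at clustering resolution 0.5, where the zones are fewer. DESeq2 gave 38 genes and 89 calls in the classes and 27 genes and 23 calls in the zones. RLE scaling gave 33 and 36 genes. No direction reversed under any alternative run. Of the calls, 37 of 81 in classes and 19 of 34 in zones held under every alternative that could be fitted.

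Fits with no replicate block gave 35 genes and 83 calls in the classes, and 25 genes and 22 calls in the zones. Without class 8 there were 31 genes and 76 calls, and without zone 9 there were 33 genes and 30 calls; both were chosen after seeing the data. Thinning each cell to 54512 counts, which left out 77 cells, moved the median share of cells with a count from 33.6% to 29.1%. Between levels, all alternatives run gave 0 calls of a Kcn gene. The one without animal 1 repeated the main fit, which held no sum of that animal, and so adds nothing. Leaving out animal 2 or 3 was not run for levels, since 1 animal would remain, and leaving out a section leaves no residual degrees of freedom.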
